A study of Mus musculus with 8 samples.

Results

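The 9 genes described here are markers of bile duct cells and of the duct-like cells that appear in injured liver: Sox9, Spp1, Krt7, Krt19, Krt23, Epcam, Cd24a, Prom1 and Itgb6. They were chosen by name, through the RefSeq transcript that each array probe is annotated to, and make up 9 of the 18316 genes and 15 of the 41056 probes that could be read on the arrays. Mouse liver RNA was hybridised to 8 arrays, so that every combination of 2 genotypes and 4 times after partial hepatectomy (0, 24, 36 and 48 h) had a single array. The Mxcre+ livers were Survivin-deleted and the Mxcre- livers Survivin wild type (Survivin is the protein of Birc5). All mice were of the 129/SV/B6 strain. Both genotypes had undergone irradiation with a marrow graft 2 months earlier and poly(IC) injection 1 week earlier. Mx1-driven Cre is switched on by interferon, which poly(IC) induces, and works in hepatocytes and in blood cells. Whether bile duct cells lost Survivin was not measured. Sex was not assigned to samples (male or female in every label), nor was it stated whether an array held 1 animal or a pool.

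Partial hepatectomy removes most of the liver, and the rest regrows mainly by division of its hepatocytes. Bile duct cells (cholangiocytes) are a small population that carries Sox9, osteopontin and the keratins K7 and K19. When hepatocyte division is blocked, small duct-like cells with progenitor features spread from the portal tracts, which pathologists call a ductular reaction. In whole-liver RNA, more cells of a type and more RNA per cell cannot be told apart, and several of the genes are also made by other cells.

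Each value is the log2 of a probe's processed signal minus the 75th percentile of its array, so 0 is a bright probe and negative values are dimmer. A probe that the scanner software did not score as well above background on an array has only an upper bound there. Between 60.2% and 66.0% of the 43379 spots of an array were well above background and none was saturated. All 9 genes passed the filter for testing (well above background on at least 2 of 8 arrays), and 7 of them were well above background on all 8 arrays. The exceptions were Epcam, measured on 4 arrays, and Itgb6, measured on 7. Birc5 was at -2.80, -3.49, -1.58 and -1.20 in Mxcre+ livers and at -0.25, -0.55, 1.53 and 5.03 in Mxcre- livers at 0, 24, 36 and 48 h, lower in Mxcre+ at 4 of 4 times. The 0 and 24 h arrays shared a slide and the 36 and 48 h arrays shared the other, so differences of 36 and 48 h from 0 h cannot be told apart from slide. Y-linked genes were detected on both 24 h arrays and on the Mxcre- 36 and 48 h arrays, but on none of the others. Thus 24 h and 0 h also differ in this, and so do the genotypes at 36 and 48 h.

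RefSeq promoter entries (GRCm38.p6) were found for 6 of the 9 genes: Spp1, Krt7, Itgb6, Prom1, Epcam and Krt23. The 250 bases before the annotated start are shown for 3 genes that rose after surgery and for Prom1, which did not pass the test, to set their letters side by side. The Spp1 window is chr5:104434861-104435110 on the plus strand, that of Krt7 is chr15:101412153-101412402 on the plus strand, that of Itgb6 is chr2:60722604-60722853 on the minus strand and that of Prom1 is chr5:44101737-44101986 on the minus strand. Capitals mark matches, on either strand, to short motifs named for the factors that bind such letters.
Spp1: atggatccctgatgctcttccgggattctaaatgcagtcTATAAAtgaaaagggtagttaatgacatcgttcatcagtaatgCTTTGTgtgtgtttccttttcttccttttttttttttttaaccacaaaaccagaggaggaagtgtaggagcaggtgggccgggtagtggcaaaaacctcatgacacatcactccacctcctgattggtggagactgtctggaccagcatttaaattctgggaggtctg
Krt7: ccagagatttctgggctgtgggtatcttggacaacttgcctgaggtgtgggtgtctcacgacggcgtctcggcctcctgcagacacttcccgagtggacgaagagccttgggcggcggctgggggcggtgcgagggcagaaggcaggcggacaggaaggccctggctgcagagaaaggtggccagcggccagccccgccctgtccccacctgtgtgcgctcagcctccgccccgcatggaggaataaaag
Itgb6: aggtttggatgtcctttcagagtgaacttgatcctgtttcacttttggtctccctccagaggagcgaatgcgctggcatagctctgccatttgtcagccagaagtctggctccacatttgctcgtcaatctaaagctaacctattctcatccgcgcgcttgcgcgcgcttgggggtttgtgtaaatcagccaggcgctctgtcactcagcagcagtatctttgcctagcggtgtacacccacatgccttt
Prom1: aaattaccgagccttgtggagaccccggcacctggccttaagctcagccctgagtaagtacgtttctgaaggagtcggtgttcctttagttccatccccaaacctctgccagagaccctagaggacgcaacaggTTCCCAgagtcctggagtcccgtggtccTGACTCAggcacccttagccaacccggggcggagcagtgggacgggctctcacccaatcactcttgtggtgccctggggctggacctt
The letters GGAATG were searched for the TEAD factors, TGANTCA for the AP-1 dimers, TGGGAA for the Notch effector RBPJ, TATAAA for the core promoter element called the TATA box, and ACAAAG for SOX factors. Matches did not overlap in these windows. In Spp1, TATAAA began at -211 and the SOX letters, read on the other strand, at -168, counted from the start. In Prom1, the RBPJ letters of the other strand began at -116 and the AP-1 letters at -88. No motif was found in Krt7, Itgb6, Epcam or Krt23. Among 32851 promoter windows of this length, 12.6% held the TEAD letters, 6.75% the AP-1 letters, 21.6% the RBPJ letters, 12.4% the TATA letters and 16.5% the SOX letters. The base composition ranged from 43.6% G and C in Spp1 to 66.0% in Krt7. A match is a run of letters in a window and was not tested as a binding site.

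The comparison of 24, 36 and 48 h with 0 h asks which duct genes changed after surgery in both genotypes. Sox9, Spp1 and Krt7 were higher at all 3 times, Itgb6 was higher at 24 h, and Krt23, Epcam and Prom1 passed the test at no time. Of the 9 genes, 4 rose at 24 h, 3 at 36 h and 3 at 48 h, and none fell. Across all 14142 genes tested, 4.43% rose and 5.26% fell at 24 h, 7.83% rose and 8.64% fell at 36 h, and 8.12% rose and 9.6% fell at 48 h. With normexp correction, in which the spot medians were used, the 24 h calls were 21 higher and 7 lower, the 36 h calls 21 higher and 3 lower, and the 48 h calls 71 higher and 12 lower. The median difference of the 9 genes was 1.04, 1.02 and 1.16 at 24, 36 and 48 h, beside -0.03, -0.06 and -0.08 over all genes tested. For 6 genes, Sox9, Spp1, Krt7, Krt19, Cd24a and Itgb6, both 0 h arrays lay below all 6 later arrays, an arrangement that 18.1% of all tested genes showed. The test was limma's moderated fit of time and genotype on all 8 arrays, with Benjamini-Hochberg adjustment over all genes at 0.05, and its error comes from how far the genotypes departed from a constant difference.

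**Figure D1:**
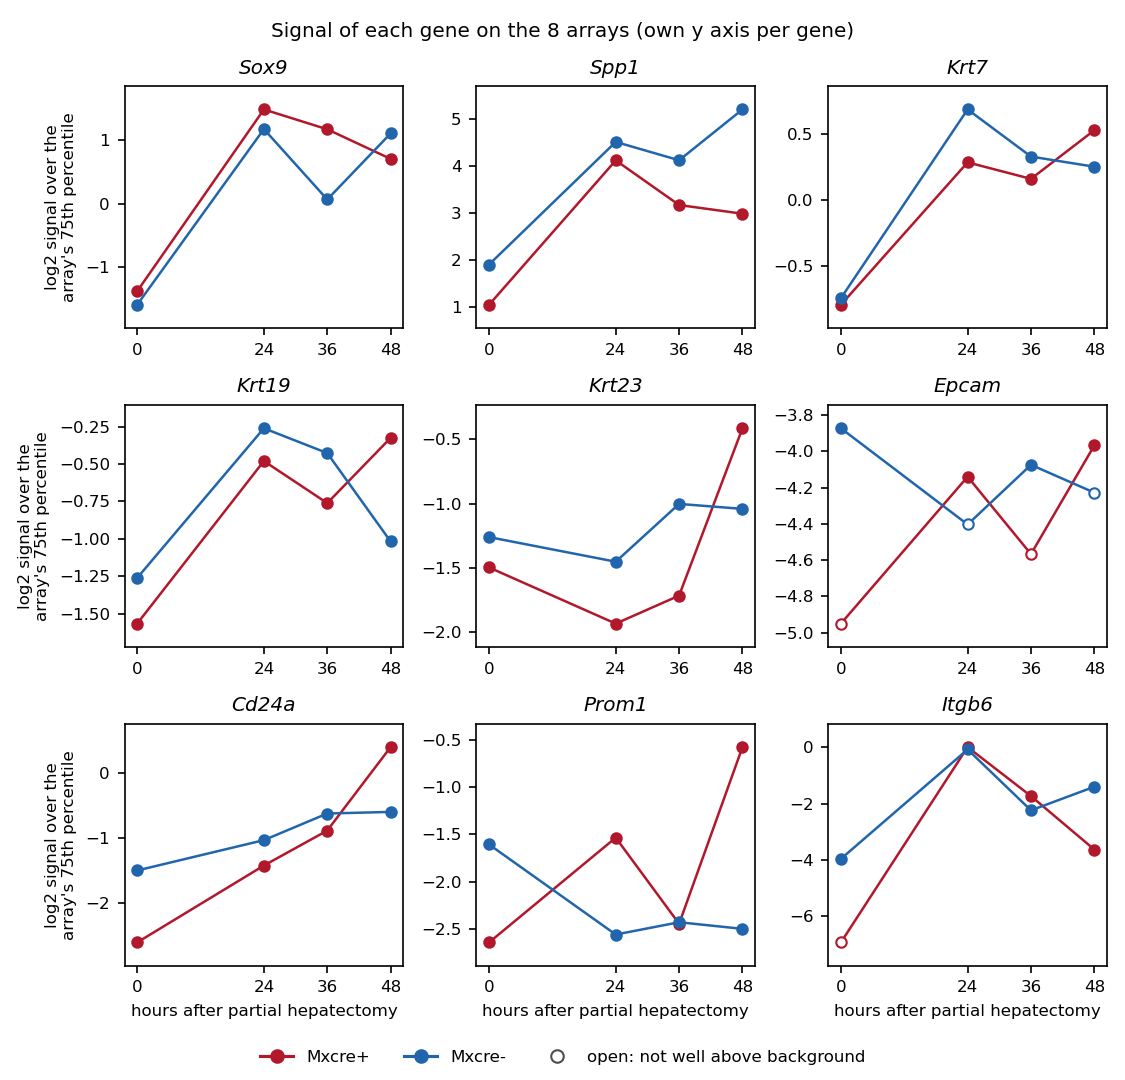
Signal of the 9 genes on each array, as log2 over the array's 75th percentile, against hours after partial hepatectomy, with Mxcre+ in red and Mxcre- in blue and open points where the probe was not well above background. The 0 h points lie below all later points for Sox9, Spp1, Krt7, Krt19, Cd24a and Itgb6, and the Mxcre+ 48 h point is the highest for Krt23, Cd24a and Prom1.

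Sox9 encodes the transcription factor that directs bile duct formation and stays on in adult duct cells. Its brightest probe, on chromosome 11, was at -1.38, 1.49, 1.18 and 0.71 in Mxcre+ livers and at -1.60, 1.18, 0.07 and 1.11 in Mxcre- livers at 0, 24, 36 and 48 h. Both 0 h arrays were low and all later arrays were high, with the Mxcre- 36 h array the lowest of the later ones. The difference from 0 h was 2.83 ± 0.36 (SE) at 24 h, 2.11 ± 0.36 at 36 h and 2.40 ± 0.36 at 48 h, or 7.09-fold, 4.32-fold and 5.28-fold, with limma's adjusted p of 0.0244, 0.0306 and 0.0201. The next probe of the same transcript, printed in 10 spots on each array, was at -2.39, 0.55, 0.02 and -0.33 in Mxcre+ livers and at -2.36, 0.24, -0.74 and 0.14 in Mxcre- livers at those times. It too was lowest on the 0 h arrays, although at 0 h it was 0.03 lower in Mxcre+ where the brightest probe was 0.21 higher. In a fit of all 27661 probes it rose by 2.76 at 24 h, 2.02 at 36 h and 2.28 at 48 h (limma's adjusted p = 0.0276, 0.0325 and 0.0217). In that fit 3% of probes rose at 24 h, 5.01% at 36 h and 5.49% at 48 h. The third Sox9 probe was above background only on the Mxcre+ 24 h array and was not tested.

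Spp1 encodes osteopontin, a secreted matrix protein that duct cells make and that macrophages and activated stellate cells can make too. Its 1 probe, on chromosome 5 and printed in 10 spots, was at 1.05, 4.11, 3.17 and 2.98 in Mxcre+ livers and at 1.90, 4.50, 4.12 and 5.19 in Mxcre- livers at 0, 24, 36 and 48 h. The 0 h arrays were again the lowest of their genotypes, and the Mxcre- 48 h array was the highest of all. Spp1 rose by 2.83 ± 0.45 at 24 h, 2.16 ± 0.45 at 36 h and 2.61 ± 0.45 at 48 h (7.12-fold, 4.48-fold and 6.10-fold; limma's adjusted p = 0.0310, 0.0404 and 0.0255). Of 10 tested macrophage markers, 0 rose at 24 h, 0 at 36 h and 1 at 48 h, beside 4.43%, 7.83% and 8.12% of all genes. Their summed level was 32.8 at 0 h and 27.8 to 48.7 after surgery in Mxcre+ livers, and 59.9 at 0 h and 28.5 to 50.03 after surgery in Mxcre- livers, so it was not higher after surgery in Mxcre-. The difference from 0 h was positive for 2, 3 and 4 of the 10 markers at 24, 36 and 48 h. Among these at 48 h, Trem2 went from -2.23 to -0.94 in Mxcre+ livers and from -2.18 to 0.13 in Mxcre- livers. Of 9 stellate cell markers, 1, 3 and 2 rose at 24, 36 and 48 h, beside 4.43%, 7.83% and 8.12% of all genes. Their summed level was 84.8 at 0 h and 83.2 to 102.0 afterwards in Mxcre+ livers, and 83.4 at 0 h and 70.9 to 100.4 afterwards in Mxcre- livers. Dcn, at 6.10 and 6.11 on the 0 h arrays, was the brightest and weighs most in this sum. Single markers went either way. From 0 to 48 h, Col1a1 went from -1.42 to 0.47 in Mxcre+ and from -1.69 to 1.45 in Mxcre- livers. Reln went from 2.43 to 1.19 and from 2.17 to 1.71. The part of macrophages and stellate cells in the Spp1 result was not tested.

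Krt7, Krt19 and Krt23 encode keratins, the intermediate filament proteins of epithelia, and K7 and K19 are the classical stains for bile ducts. Krt7, on chromosome 15, was at -0.80, 0.29, 0.16 and 0.53 in Mxcre+ livers and at -0.75, 0.69, 0.33 and 0.25 in Mxcre- livers at 0, 24, 36 and 48 h. Its 0 h values lay close together and below all later ones. Krt7 rose by 1.26 ± 0.19 at 24 h, 1.02 ± 0.19 at 36 h and 1.16 ± 0.19 at 48 h (2.40-fold, 2.03-fold and 2.24-fold; limma's adjusted p = 0.0300, 0.0347 and 0.0235). The dimmer Krt7 probe was at -3.49, -2.64, -3.01 and -2.61 in Mxcre+ livers and at -3.73, -2.27, -2.57 and -2.59 in Mxcre- livers. It rose by 1.15 at 24 h and 1.01 at 48 h in the fit of every probe (limma's adjusted p = 0.0459 and 0.0431), while its 0.82 at 36 h had an adjusted p of 0.0659.

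Krt19, on chromosome 11, was at -1.57, -0.48, -0.76 and -0.33 in Mxcre+ livers and at -1.26, -0.26, -0.43 and -1.02 in Mxcre- livers. Both 0 h arrays were the lowest, but the Mxcre- 48 h array came near them. Its differences from 0 h, 1.04 ± 0.29, 0.82 ± 0.29 and 0.74 ± 0.29 at 24, 36 and 48 h, did not pass (limma's adjusted p = 0.0894, 0.115 and 0.142), although both genotypes were above their own 0 h array at each time. It was called in 2 of 18 settings at 24 h and 2 of 17 at 36 h, each time the fits without 1 of the 48 h arrays. Over all settings its difference ran from 0.29 to 1.55 at 24 h and from 0.13 to 1.04 at 36 h.
Krt23, a keratin gene on chromosome 11, was at -1.497, -1.93, -1.72 and -0.41 in Mxcre+ livers and at -1.26, -1.45, -1.003 and -1.04 in Mxcre- livers. Only the Mxcre+ 48 h array stood above the rest, and the differences from 0 h were -0.31, 0.02 and 0.65 (SE 0.34 each; limma's adjusted p = 0.584, 0.971 and 0.233). Markers of mesothelium, the liver's covering, which also makes K7 and K19, had a summed level of 1.48 at 0 h and 1.12 to 1.69 afterwards in Mxcre+ livers. In Mxcre- livers it was 1.12 at 0 h and 1.18 to 2.24 afterwards. Of the 5 tested mesothelial markers, 0 rose at any time and 1 fell, at 48 h, where 9.6% of all genes fell. Their part in the keratin results was not tested.

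Epcam, Cd24a and Prom1 encode surface proteins used to sort duct and progenitor cells: an adhesion molecule, a small glycosylated protein also found on blood cells, and the CD133 membrane protein. Epcam, on chromosome 17, was near background on every array, at -4.95, -4.14, -4.57 and -3.97 in Mxcre+ livers and at -3.87, -4.40, -4.07 and -4.23 in Mxcre- livers. It was well above background on the Mxcre+ 24 and 48 h and the Mxcre- 0 and 36 h arrays, with no order by time. Its differences from 0 h were 0.14, 0.09 and 0.31 (SE 0.38 each; limma's adjusted p = 0.838, 0.875 and 0.576), so at this signal a change was not detectable.
Cd24a, on chromosome 10, was at -2.60, -1.42, -0.89 and 0.40 in Mxcre+ livers and at -1.499, -1.03, -0.62 and -0.60 in Mxcre- livers at 0, 24, 36 and 48 h. Values were ordered by time within each genotype, with the Mxcre+ 48 h array far above the rest. The differences from 0 h were 0.82, 1.30 and 1.95 (SE 0.50 each), and none passed (limma's adjusted p = 0.326, 0.131 and 0.0578). At 48 h limma's adjusted p was 0.0367 among genes above background on all 8 arrays, 0.0398 with a trended, robust variance and 0.0461 with the Y-linked level as a covariate. These were the only 3 of 17 settings that called it. Over all 17 the difference ran from 0.65 to 2.74, with an adjusted p of up to 0.241. Neutrophils also carry CD24. The summed level of 9 neutrophil markers was 8.03, 27.8, 67.5 and 87.6 in Mxcre+ livers and 64.9, 53.3, 30.4 and 24.3 in Mxcre- livers at 0, 24, 36 and 48 h. It was thus ordered like Cd24a in Mxcre+ and opposite to it in Mxcre-, and 0 of the 9 markers passed at any time. Of 5 tested B cell markers, another cell type that carries CD24, 0 rose, and 3 fell at 36 h and 2 at 48 h, beside 8.64% and 9.6% of all genes. Their part in the Cd24a values was not tested.
Prom1, on chromosome 5, was at -2.64, -1.53, -2.45 and -0.58 in Mxcre+ livers and at -1.61, -2.56, -2.43 and -2.50 in Mxcre- livers. The genotypes ran in opposite directions from their 0 h arrays, and the differences from 0 h were 0.08, -0.31 and 0.59 (SE 0.72 each; limma's adjusted p = 0.957, 0.770 and 0.585). Its dimmer probe was at -3.83, -3.04, -3.92 and -1.92 in Mxcre+ livers and at -3.07, -3.77, -3.67 and -4.19 in Mxcre- livers, again highest on the Mxcre+ 48 h array.

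**Figure D2:**
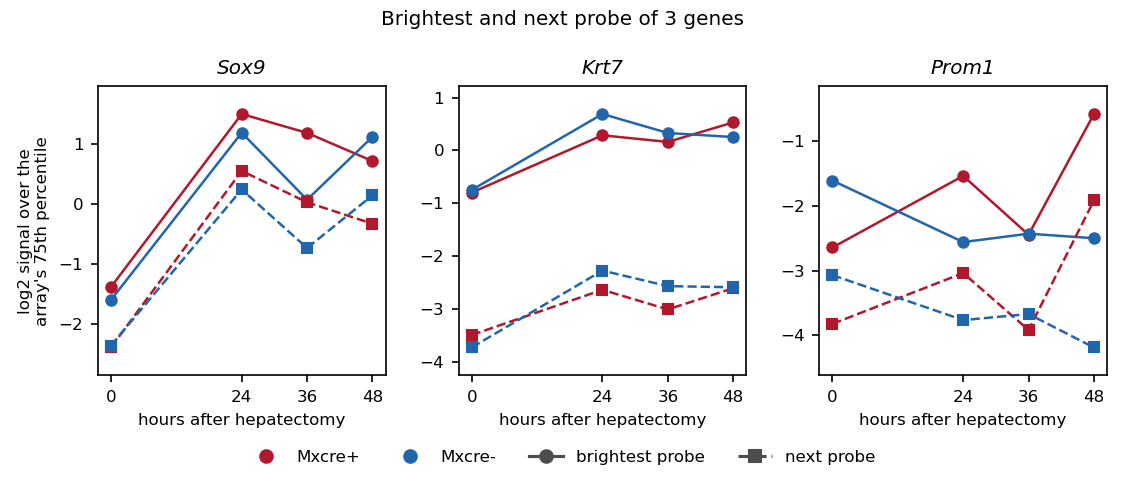
Log2 signal over the array's 75th percentile for the brightest probe (solid lines, circles) and the next probe (dashed lines, squares) of Sox9, Krt7 and Prom1 at 0, 24, 36 and 48 h, with Mxcre+ in red and Mxcre- in blue. Both probes of Sox9 and of Krt7 lie lowest at 0 h, and both Prom1 probes are highest on the Mxcre+ 48 h array, at -0.58 and -1.92. The Krt7 probes order the genotypes differently at 0 and 48 h, and so do the Sox9 probes at 0 h.

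Itgb6 encodes the beta chain of integrin αvβ6, which is made by epithelia under injury, binds osteopontin among other ligands and activates latent TGF beta. Its brightest probe, on chromosome 2, was at -6.93, 0.01, -1.73 and -3.63 in Mxcre+ livers and at -3.96, -0.08, -2.24 and -1.40 in Mxcre- livers at 0, 24, 36 and 48 h. It was not well above background on the Mxcre+ 0 h array. The 24 h arrays agreed closely and were the highest, and both 0 h arrays were the lowest. Itgb6 was 5.41 ± 0.95 higher at 24 h (limma's adjusted p = 0.0372), and with the dim 0 h array set at the lowest signal measured there the difference was 4.53, or 23.1-fold. At 36 h it was 3.46 ± 0.95 (adjusted p = 0.0691) and at 48 h 2.93 ± 0.95 (adjusted p = 0.0960), or 2.58 and 2.05 with the dim array so set. Within Mxcre- livers, where all 4 arrays measured it, 24 h was 3.89 above 0 h, 36 h was 1.72 above and 48 h was 2.56 above. The other two Itgb6 probes were not well above background on any array.

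**Figure D3:**
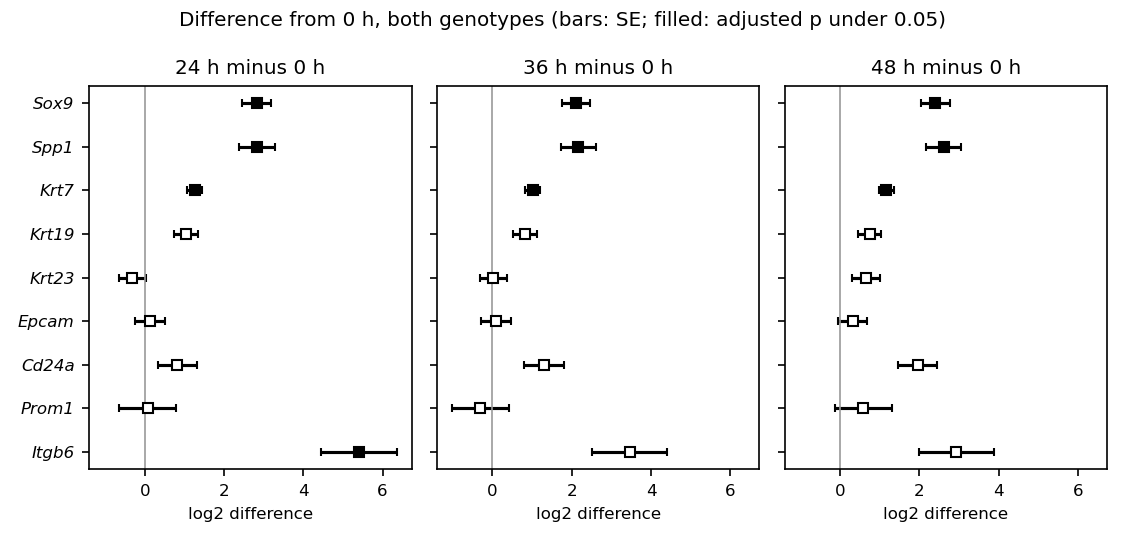
Log2 difference of each gene from 0 h at 24, 36 and 48 h, from the fit of both genotypes, with bars for the SE and filled squares where limma's adjusted p was under 0.05. Sox9, Spp1 and Krt7 are filled in all 3 panels, and Itgb6, with the widest bars, is filled at 24 h.

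These calls rested on few arrays. With normexp background correction of the spot medians none of the 9 genes passed, and at 24 h Sox9 was 1.46 higher, Spp1 2.68, Krt7 0.59 and Itgb6 0.92 (limma's adjusted p = 0.201, 0.163, 0.543 and 0.585). Leaving out either 0 h array or either 24 h array left 0 genes called at 24 h, leaving out any 0, 24 or 36 h array left 0 at 36 h, and at 48 h leaving out any single array left 0 or 1, each with fewer residual degrees of freedom. With the 4 arrays of the first slide alone, which give the same differences by construction, 24 h against 0 h called none of the 14142 genes, and limma's adjusted p was 0.0839 for Sox9, 0.0839 for Spp1, 0.0873 for Krt7 and 0.101 for Itgb6.

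Between 48 and 36 h, times that shared a slide, 0 of the 9 genes passed limma's test, 0 of them also at an unadjusted p under 0.05, and 0.106% of all genes passed. The differences ran between -0.53 ± 0.95 for Itgb6 and 0.90 ± 0.72 for Prom1. Cd24a was higher at 48 h than at 36 h by 1.28 in Mxcre+ livers and 0.02 in Mxcre- livers. Spp1 differed by -0.18 in Mxcre+ livers and 1.08 in Mxcre- livers, and Sox9 by -0.47 and 1.04.

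The comparison of Mxcre+ with Mxcre- livers asks whether loss of Survivin changed the duct genes. At 36 and 48 h the Mxcre- arrays had Y-linked signal and the Mxcre+ arrays had none. Genotype cannot be told apart from this at those times, also in the test of the change after surgery. None of the 9 genes passed over the 4 times together, and 0% of all genes did, although 931 of 14142, among them 1 of the 9, had an unadjusted p under 0.05 by limma and the smallest adjusted p was 0.429. Birc5, the deleted gene, had a difference of -3.71 and did not pass either, so this test missed even that difference. Spp1 was lower in Mxcre+ livers at 4 of 4 times, by 0.85, 0.39, 0.95 and 2.21 on the log2 scale at 0, 24, 36 and 48 h. Its mean difference was -1.10 ± 0.31, or 2.15-fold lower (limma's unadjusted p = 0.0180, adjusted p = 0.751). The macrophage markers named above were summed at 32.8, 27.8, 44.4 and 48.7 in Mxcre+ livers and at 59.9, 50.03, 28.5 and 46.8 in Mxcre- livers at 0, 24, 36 and 48 h. Their sum was thus lower in Mxcre+ at 0 and 24 h only, and at 48 h, where Spp1 lay farthest apart, it was 48.7 against 46.8. A sum follows its brightest markers, and single markers went either way at 48 h. Trem2 was at -0.94 in Mxcre+ and 0.13 in Mxcre- livers, and Clec4f at 3.40 and 2.74. The part of macrophages in the Spp1 difference was not tested. Itgb6 differed by -1.15 ± 0.67 (adjusted p = 0.761), or by -0.71 with its dim array at the lowest measured signal, with at least 2.30-fold less in Mxcre+ at 0 h, 0.08 and 0.51 more at 24 and 36 h and 2.23 less at 48 h. Sox9 was 0.31 ± 0.26 higher (adjusted p = 0.794) and above Mxcre- at 3 of 4 times on its brightest probe. The next Sox9 probe was 0.03 and 0.47 lower in Mxcre+ at 0 and 48 h and 0.31 and 0.76 higher at 24 and 36 h. The other differences were within 1 SE of 0 (Krt7, -0.09 ± 0.14; Krt19, -0.04 ± 0.21; Krt23, -0.20 ± 0.24; Epcam, -0.26 ± 0.27; Cd24a, -0.19 ± 0.35; Prom1, 0.47 ± 0.51).
At 48 h, where they also differed in Y-linked signal, the genotypes lay apart in both directions. Krt7, Krt19, Krt23, Cd24a and Prom1 were 0.28, 0.69, 0.63, 1.00 and 1.92 higher in Mxcre+ than in Mxcre- livers, each having been lower at 0 h by 0.05, 0.31, 0.24, 1.11 and 1.04. For Krt7 this was the brightest probe, and the dimmer one was 0.24 higher in Mxcre+ at 0 h and 0.02 lower at 48 h. Each of these is the difference of 1 array from 1 array and has no replicate check. The test of the genotype difference after surgery against that at 0 h passed for 0 of the 9 genes, 0 of them at an unadjusted p under 0.05 by limma, and for 0.17% of all genes. It gave 2.01 ± 0.82 for Prom1, 1.22 ± 0.66 for Cd24a and 1.09 ± 0.41 for Epcam, which was dim on 4 arrays (limma's adjusted p = 0.794, 0.879 and 0.769). For Itgb6 it gave 2.42 ± 1.23 (adjusted p = 0.858), but 0.65 with the dim Mxcre+ 0 h array at the lowest signal measured there. For the other five it lay between -0.33 and 0.35.

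**Figure D4:**
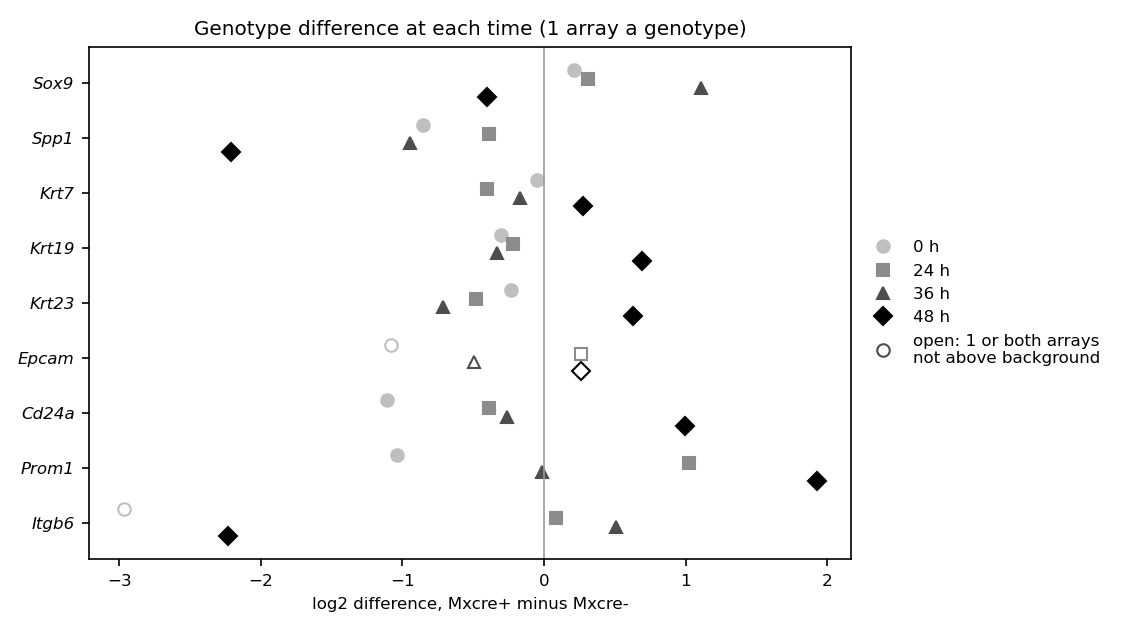
Log2 difference between the Mxcre+ and the Mxcre- array at 0, 24, 36 and 48 h for each gene, with open symbols where 1 or both arrays were not well above background. All 4 Spp1 points lie left of 0, and the 48 h points of Krt7, Krt19, Krt23, Cd24a and Prom1 lie right of 0 while their 0 h points lie left.

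Other genes of duct cells were called about as often as all genes. Of 24 listed genes of biliary epithelium, 18 could be tested, and 1, 0 and 2 rose at 24, 36 and 48 h, beside 4.43%, 7.83% and 8.12% of all genes, with none falling. Their median differences were 0.33, 0.33 and 0.47. Elf3, an epithelial transcription factor, was at -4.85, -1.33, -2.59 and -2.89 in Mxcre+ livers and at -4.22, -2.16, -3.12 and -1.56 in Mxcre- livers. It rose by 2.79 ± 0.57 at 24 h (limma's adjusted p = 0.0495), with its Mxcre+ 0 h array not well above background, but with normexp the difference was 0.15 (adjusted p = 0.904), and no fit with an array left out called it. Bicc1, an RNA-binding protein of ducts and tubules, and Pkhd1, the fibrocystin gene of duct cilia, rose at 48 h by 0.99 ± 0.18 and 0.94 ± 0.22 (adjusted p = 0.0299 and 0.0472). With normexp these were 0.94 and 0.21 (adjusted p = 0.170 and 0.556), and neither was called with any array left out. The E-cadherin gene Cdh1 was 1.31 and 1.51 higher at 36 and 48 h, and neither passed (adjusted p = 0.0945 and 0.0701). Cftr, Cldn4, Muc1, Sctr and Slc5a1 were not well above background on any array, so several defining genes of duct cells were not measurable in this whole-liver RNA.

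Krt8 and Krt18, the keratins that hepatocytes and duct cells share, rose at all 3 times. Krt8 was at 5.50, 8.04, 7.52 and 7.64 in Mxcre+ livers and at 5.95, 7.83, 7.51 and 7.60 in Mxcre- livers, with no overlap between 0 h and later arrays. It rose by 2.21, 1.79 and 1.89 (SE 0.19 each; limma's adjusted p = 0.0179, 0.0187 and 0.0119), and Krt18 by 2.03, 1.66 and 1.66 (SE 0.15 each; adjusted p = 0.0179, 0.0162 and 0.00954). With normexp Krt8 was still called at each time (adjusted p = 0.0332, 0.0489 and 0.0170). Krt18 was then 2.23, 2.03 and 2.14 higher and was called at 48 h only (adjusted p = 0.0519, 0.0726 and 0.0371). Krt20, the third of the 3 simple keratins tested, was above background on 2 arrays and did not pass. Of 7 tested hepatocyte markers, 1, 0 and 0 fell at 24, 36 and 48 h, beside 5.26%, 8.64% and 9.6% of all genes, and none rose. Their summed level was 2046 at 0 h and 1612 to 1823 afterwards in Mxcre+ livers, and 1862 at 0 h and 1716 to 1982 afterwards in Mxcre- livers.

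Signals that act on duct cells were read from further lists. Tnfrsf12a, the receptor of the cytokine TWEAK, which drives ductular reactions, was at 1.43, 5.07, 5.41 and 4.99 in Mxcre+ livers and at 1.01, 5.14, 4.78 and 4.04 in Mxcre- livers. It rose by 3.89, 3.88 and 3.30 (SE 0.26 each; limma's adjusted p = 0.0171, 0.0129 and 0.00731), while its ligand gene Tnfsf12 was not well above background on any array. Of 12 tested targets of YAP and TEAD, a pair of factors active in duct cells and in growing liver, 2, 2 and 4 rose, beside 4.43%, 7.83% and 8.12% of all genes, and none fell, with medians of 0.45, 0.85 and 0.46. Ccn1, a secreted matrix protein, rose by 0.94, 1.46 and 1.25 (SE 0.15 each; adjusted p = 0.0310, 0.0177 and 0.0141), but with normexp the differences were 0.12, 0.32 and 0.15 (adjusted p = 0.903, 0.434 and 0.701). Ankrd1, a nuclear cofactor, was not well above background on either 0 h array and was on all later ones, at least 5.86-fold, 4.59-fold and 3.49-fold higher at 24, 36 and 48 h (adjusted p = 0.0345, 0.0335 and 0.0378), but with normexp correction it differed by 0.03, -0.36 and -0.67. Ajuba and Crim1 rose at 48 h, by 2.30 ± 0.53 and 0.97 ± 0.23 (adjusted p = 0.0473 and 0.0496), but with normexp the differences were 0.36 and 0.66 (adjusted p = 0.533 and 0.241), with no call when any array was left out.
Notch signalling directs duct fate together with Sox9. Of 9 tested genes of the pathway 0 rose at any time, with 3, 3 and 2 at an unadjusted p under 0.05 in either direction by limma, beside 30.7%, 37.8% and 36.8% of all genes. The target gene Hey1 fell at 36 h by 1.18 on the log2 scale (SE 0.25; limma's adjusted p = 0.0432), or by 0.88 with its dim array at the lowest measured signal. No gene of the pathway passed at 24 or 48 h. Hes1, another gene of this list, was 0.89, 1.06 and 0.62 higher at 24, 36 and 48 h, and none of these passed. The difference from 0 h was positive for 3, 3 and 4 of the 9 genes. The Hey1 call was lost with normexp, quantile scaling and the deposited matrix (adjusted p = 0.336, 0.0729 and 0.0730). Jag2 and Nrarp were not well above background on any array. Of 11 tested genes for osteopontin receptors and latent TGF beta activation, 1, 1 and 2 rose and 0, 1 and 0 fell. Beside these, 4.43%, 7.83% and 8.12% of all genes rose and 5.26%, 8.64% and 9.6% fell. Itga5, an integrin chain, rose by 1.00 ± 0.14 at 48 h (adjusted p = 0.0176), and Ltbp1, which holds latent TGF beta in the matrix, fell at 36 h by 0.79 (adjusted p = 0.0367). With normexp Itga5 was 0.33 higher (adjusted p = 0.326). Averaged over its probes Ltbp1 was -0.14 (adjusted p = 0.485), and its call was lost with quantile scaling, the deposited matrix, no filter, normexp or any array left out. Thbs1, which can release active TGF beta, passed at all 3 times but was above background on 1 of the 2 arrays of each later time and on neither 0 h array, so no size is given, and its sign turned under normexp (-0.19, -0.72 and -0.90). No gene of these lists passed between genotypes.

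**Figure D5:**
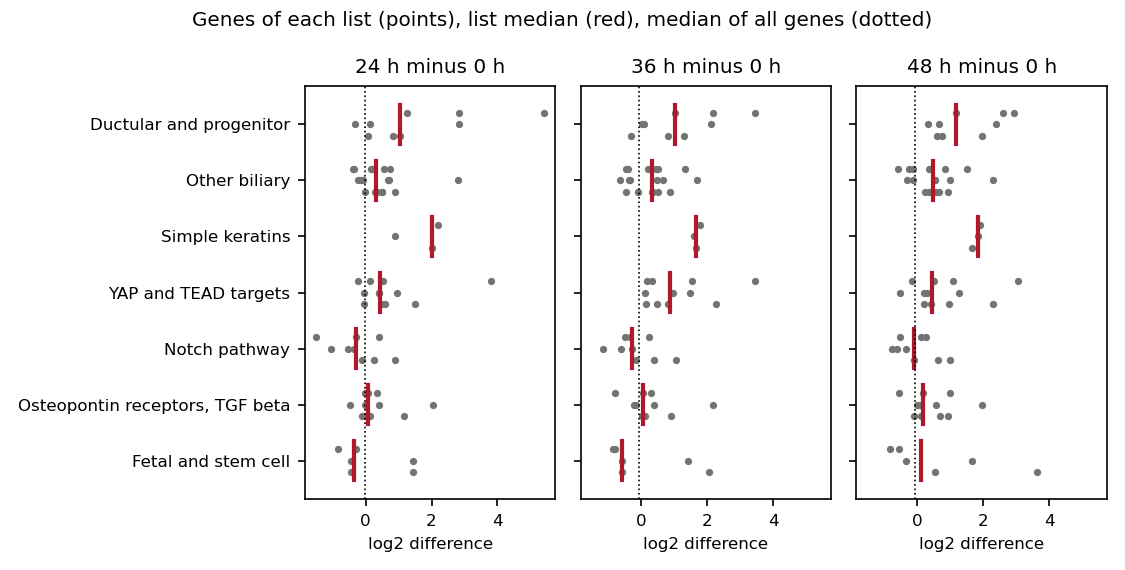
Log2 difference from 0 h, averaged over both genotypes, for the tested genes of each list at 24, 36 and 48 h, with a red bar at the list's median and a dotted line at the median of all genes. The median of the 9 duct and progenitor genes lies at 1.04, 1.02 and 1.16 and that of the other biliary genes at 0.33, 0.33 and 0.47.

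The genes whose 8-array pattern was most like that of a member were looked up among the genes above background on all 8 arrays, as a description. Dnajc10, which encodes a chaperone of the endoplasmic reticulum, followed Sox9 with a Pearson r of 0.994, and Cstb and Trmt6 came next at 0.9897 and 0.982. Orm1, an acute phase plasma protein of hepatocytes, was most like Itgb6 (r = 0.985), ahead of Tnfrsf1a, a receptor for TNF, at 0.979. Both values of r include the Itgb6 signal of -6.93 on the Mxcre+ 0 h array, its lowest, which was not well above background. Itm2c was most like Spp1 (0.980), Kifc3 most like Krt7 (0.986), Arv1 most like Krt19 (0.974) and Asap3 most like Prom1 (0.946). Dll1, a Notch ligand, was most like Krt23 (0.975). With 8 arrays and 12127 candidate genes, high values of r are common, and the arrays share slides and times.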

How the data were processed

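Liver RNA was measured on 8 Agilent 1-colour (Cy3) arrays of 1 design. The deposited files hold spot intensity; per the file headers, Feature Extraction 10.7.3.1 (10.7 in the submitters' processing notes) had subtracted background from it and detrended it within each array, and did not scale between arrays. The deposited matrix holds log2 values whose scale, centring and method are not given in the sources used here. All its columns had a median of 5.51, and each correlated with its own array's log2 processed signal at r of at least 0.999, so it was read as quantile-normalised log2 signal and served as an alternative.

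Control and outlier spots were dropped, log2 of the processed signal minus the array's 75th percentile was taken, and spots of a probe were averaged. Probes were named through RefSeq accessions (26839 of 41056 probes, 18316 genes), and the probe with the highest mean stood for its gene. The 14142 genes that 2 or more of the 8 arrays scored as well above background were fitted with limma 3.58.1 in R 4.3.3, with time and genotype as factors (3 residual degrees of freedom), and with a genotype by after-surgery term for the change in genotype difference (2 residual degrees of freedom). P-values were adjusted by Benjamini-Hochberg over all genes at 0.05. Each genotype and time had 1 array, so the spread between livers of a group is unknown and p-values measure departure from the additive model. The number of arrays limits the precision.

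The 9 genes and the other lists were chosen with earlier results of these data known. The text names all 9 genes with every probe, up to 4 genes of each other list per comparison (those past the threshold first, then by size of difference) and the 3 genes most alike in pattern for members measured on at least 6 arrays. Some genes that this rule or a list would name are not reported here. Alternatives covered background correction, scaling, filters, probe choice, variance settings, each array left out, a Y-linked covariate and each slide alone. The planned normexp on the spot mean signal was replaced by one on the spot median, with an offset of 50, since that column was not among those used here. The fits were tested on simulated data. Times follow the titles of the samples, since a treatment note names another, later time.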

Additional observations from a re-analysis of the deposited data

Results flagged for a closer look

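Prom1 was flagged because, relative to the 0 h array of the same genotype, all 3 later Mxcre+ arrays were higher (by 1.11, 0.20 and 2.07 at 24, 36 and 48 h) and all 3 later Mxcre- arrays were lower (by 0.95, 0.82 and 0.89). The genotype difference after surgery minus that at 0 h was 2.01 ± 0.82, and its test did not pass (limma's unadjusted p = 0.0722, adjusted p = 0.794). On its dimmer probe the Mxcre+ 36 h array was 0.09 below the 0 h array instead, so the arrangement did not hold there, and the test gave 1.67 ± 1.06 (limma's adjusted p = 0.923 in the fit of every probe). Epcam was flagged for the same arrangement, with 1.09 ± 0.41 (limma's unadjusted p = 0.0573, adjusted p = 0.769), but it was well above background on 4 of 8 arrays only. Both rest on 1 array of each genotype at 0 h, and at 36 and 48 h the genotypes also differed in Y-linked signal. Over all genes tested, 0.17% passed this test.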

How the results depend on the processing

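Against 0 h, the calls among the 9 genes (4 at 24 h, then 3 at 36 h and 3 at 48 h) moved by more than 1.5 times under several settings. They were 0, 0 and 0 with normexp on the spot and background medians (added after the data were seen), 1 at 24 h and 1 at 36 h with no filter on dim probes, and 0, 0 and 1 with the Y-linked level as a covariate. The 1 gene called with the covariate was Cd24a, which the main fit did not call. Sox9, Spp1 and Krt7 were then not called at 48 h (limma's adjusted p = 0.0661, 0.0605 and 0.0509). With the first slide alone the count at 24 h was 0. Leaving out 1 array at a time gave 0 to 4 at 24 h, 0 to 4 at 36 h and 0 to 1 at 48 h. None of these fits called Itgb6 at 24 h. Krt19, which the main fit did not call, was among the genes called at 24 and 36 h without 1 of the 48 h arrays. For the genotype difference, for 48 against 36 h and for the change in genotype difference, 0 of the 9 genes were called under every setting run, but the last could not be fitted without a 0 h array. Quantile scaling, the deposited matrix, the filter to all 8 arrays, every probe, the mean over probes and the trended variance moved no count by more than 1.5 times. Sox9, Spp1 and Krt7 stayed higher than at 0 h in sign under all 18 settings run at 24 h and all 17 at 36 and at 48 h. Itgb6 stayed higher under all 17 settings that held it at 24 h, but under 15 of 16 at 36 h and at 48 h. Its lowest values there were -0.17 and -0.21. With normexp, the sign of called genes of the other lists turned for Thbs1 (-0.19, -0.72 and -0.90 at 24, 36 and 48 h) and Ankrd1 (-0.36 and -0.67 at 36 and 48 h); the cause was not tested. Normexp also moved the median of all genes from -0.03, -0.06 and -0.08 to -0.11, -0.13 and -0.14 at 24, 36 and 48 h. A sign change of a value that was called in neither fit was counted as moved if it exceeded 1 SE. Over all genes, 28, 24 and 83 of 1370, 2329 and 2507 calls at 24, 36 and 48 h were also made with normexp, with the same sign, and it made no others. Of the 30 calls named for the other lists, 7 were also made with normexp, 7 were lost in every fit with an array left out, and 0 were kept in all of those fits. The count over all genes was 580, 990 and 1573 with no filter, 1, 1033 and 1195 with the Y-linked covariate, and 0 at 24 h with the first slide alone, while the trended variance gave 2116 at 24 h. Leaving out 1 array gave 0 to 519, 0 to 931 and 84 to 1512. For 48 against 36 h the 15 genes called became 5 with normexp, 2 with quantile scaling, the deposited matrix or no filter, 27 with the filter to all 8 arrays, 28 with every probe, 24 with the trended variance and 0 with the covariate, the second slide alone or any array left out. For the change in genotype difference the 24 became 1, 3 and 44 with normexp, the filter to all 8 arrays and every probe, and 0 with the covariate or an array left out. No paired analysis was possible because each genotype and time had 1 array and the labels give no replicate numbers. Epcam and 2 of the 3 Itgb6 probes were limited by signal over background.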

Other observations

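Of 6 tested genes of fetal liver and stem cells, 1, 1 and 2 rose at 24, 36 and 48 h, beside 4.43%, 7.83% and 8.12% of all genes, and none fell. The difference from 0 h was positive for 2, 2 and 3 of the 6, with medians of -0.36, -0.59 and 0.10. Cd34, a surface protein of endothelium and blood progenitors, rose at 24, 36 and 48 h by 1.43, 1.41 and 1.66 (SE 0.15 each; limma's adjusted p = 0.0203, 0.0177 and 0.00935). With normexp its differences were 0.72, 0.79 and 0.99 (adjusted p = 0.387, 0.262 and 0.124). Afp, the fetal plasma protein alpha-fetoprotein, was at -1.43, -0.28, 0.61 and 3.01 in Mxcre+ livers and at -1.44, 0.30, 0.63 and 1.39 in Mxcre- livers at 0, 24, 36 and 48 h. Its 0 h values were alike and its 48 h values the highest, and it rose at 48 h by 3.63 ± 0.54 (limma's adjusted p = 0.0196), and with normexp the difference was 2.35 (adjusted p = 0.0719). The growth regulator Dlk1, above background on both 0 h arrays and on 0, 1 and 1 of the arrays at 24, 36 and 48 h, did not pass (limma's adjusted p = 0.191, 0.168 and 0.165). With dim arrays at the lowest measured signal it differed by -0.59, -0.54 and -0.65. Igf2bp3 was not well above background on any array.

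Of the 6 proliferation genes, 0 rose at 24 h and 6 at both 36 and 48 h, beside 4.43%, 7.83% and 8.12% of all genes. Their median differences were 0.43, 3.01 and 5.95. Sox9, Spp1, Krt7 and Itgb6 were thus already higher at 24 h, where 0 of the 6 proliferation genes passed; 0 h arrays are shared by all these comparisons.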
